A study of Mus musculus with 9 samples.

Results

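T-5224, labelled an inhibitor of the transcription factor AP-1, was given to mice that also received BAPN, and their aortas were compared with aortas of mice that received BAPN alone. The comparison rests on 4 of the 9 RNA sequencing libraries of the series, 2 with BAPN plus T-5224 and 2 with BAPN, chosen by the treatment named in the labels. All animals were C57BL/6J mice killed on day 28. BAPN was taken in solution at 1 g/kg/day for the induction of aortic dissection, and T-5224 was gavaged daily at 5 mg/kg/day from day 7 or day 14. The T-5224 libraries are titled 2 weeks (replicate 1) and 3 weeks (replicate 2), and the labels do not say how these weeks follow from the day on which gavage began. Both were fitted as replicates of 1 treatment. Each titled week has 1 library, so a difference between the 2 libraries cannot be told apart from one between the titled weeks. The labels name 12 mice for each group, but not which or how many mice gave a library, nor their age. The p-values below therefore measure the spread between libraries, which may be technical. The 2 normal libraries, from mice given distilled water, serve as the background level, and the labels mention no gavage with vehicle. The remaining libraries, 2 with BAPN plus TPA and 1 with BAPN plus the agent written co110 (read here as coQ10), entered the fits that estimate the spread.

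AP-1 is a dimer of Fos, Jun and ATF family proteins that binds the sequence TGANTCA in promoters and enhancers, where N is any base. Growth factors, cytokines and stress induce several of its subunits within minutes, and AP-1 acts with NF-kB at many cytokine, chemokine and adhesion molecule genes. BAPN blocks lysyl oxidase, the enzyme that cross-links elastin and collagen, and weakens the aortic wall. In the normal wall, smooth muscle cells hold the contractile apparatus while fibroblasts and smooth muscle cells make the matrix.

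Values are FPKM, fragments per kilobase of transcript scaled to the library's total, a level that allows for transcript length, and changes are differences of log2(FPKM + 1), a scale that understates the change of low genes. In all, 12997 of 17179 gene symbols had a mean of at least 1 FPKM over the 9 libraries and were tested with limma. The 2 T-5224 libraries were less alike than the BAPN pair (Pearson r across genes 0.79 against 0.94), so a change seen in both was kept apart from a change seen in 1. Replicate 1 was most like the coQ10 library (0.94) and normal replicate 2 (0.92). Replicate 2 was most like TPA replicate 2 (0.88) and BAPN replicate 1 (0.86). A gene was counted as seen in both where both T-5224 libraries lay at least 1 log2 unit beyond both BAPN libraries. It was counted as seen in 1 where 1 T-5224 library did so and the other did not lie beyond the BAPN libraries in that direction at all.

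Libraries stood apart in ways that bear on every result. Haemoglobin genes made up 68.9 and 74.1% of the summed FPKM in the BAPN libraries, 40.8 and 11.2% in the T-5224 libraries and 1.25 and 1.03% in the normal ones; with 2 libraries against 2 the smallest 2-sided exact permutation p is 0.333, and that was its value. Ribosomal protein genes made up 33.8% of the sum in T-5224 replicate 2 and 6.67 to 8.98% in the other 3 libraries compared. Levels relative to the mean of the 9 libraries also trended with transcript length. The Spearman correlation was -0.373 in T-5224 replicate 2, 0.006 in replicate 1 and -0.188 and -0.07 with BAPN. Genes listed numbered 14919 and 13982 in T-5224 replicates 1 and 2 and 14682 and 15392 with BAPN. Markers of smooth muscle (Acta2), endothelium (Pecam1) and fibroblasts (Dcn) were present in all 4. Markers of other tissues were uneven: skeletal muscle genes summed to 3856 and 2288 FPKM with BAPN but 28.9 and 10483 FPKM in T-5224 replicates 1 and 2, and airway genes to 5068 FPKM in T-5224 replicate 2 against 22.6 to 27.7 FPKM in the other 3. Normal replicate 1 also carried airway genes, at 20701 FPKM, and all 4 Y-linked genes listed were at 0 in it and in no other of the 6 normal, BAPN and T-5224 libraries. In bulk tissue, fewer cells of a type and less RNA per cell cannot be told apart. The part that these differences play in the results below was not tested.

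With T-5224, 4 genes fell and none rose at an adjusted p under 0.05: Il6, Cxcl1, Csf3 and Cxcl2, a cytokine, 2 chemokines that attract neutrophils and the growth factor of neutrophils. They are 0.0308% of the tested genes. At an unadjusted p under 0.05, 814 genes (6.26%) were lower and 1565 (12%) higher. This balance turned with the scaling, to 1297 lower and 511 higher under median of ratios and to 1282 lower and 168 higher with haemoglobin left out of the sum. Across all tested genes the median difference was 0.35 log2 units as deposited, and changes of gene lists are given beside it. Without T-5224 replicate 1, 40 genes fell and 45 rose, with the 4 among them.

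The promoters of Il6, Cxcl1 and Cxcl2, 3 of the 4 genes that fell, are shown because T-5224 is labelled an AP-1 inhibitor, together with those of Tnfaip3 and Sele, 2 further genes that were low in both T-5224 libraries. Each sequence is the 250 bases before the transcription start in RefSeq (GRCm38.p6), 5′ to 3′ on the gene's strand. Capitals mark the AP-1 motif TGANTCA, searched on both strands; none of these windows held the cyclic AMP response element TGACGTCA.
Il6, chr5:30012864-30013113, plus strand: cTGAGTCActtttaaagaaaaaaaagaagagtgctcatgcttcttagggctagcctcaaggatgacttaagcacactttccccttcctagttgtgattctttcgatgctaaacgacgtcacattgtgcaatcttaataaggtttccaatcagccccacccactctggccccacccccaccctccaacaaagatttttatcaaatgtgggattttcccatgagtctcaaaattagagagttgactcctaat
Cxcl1, chr5:90890995-90891244, plus strand: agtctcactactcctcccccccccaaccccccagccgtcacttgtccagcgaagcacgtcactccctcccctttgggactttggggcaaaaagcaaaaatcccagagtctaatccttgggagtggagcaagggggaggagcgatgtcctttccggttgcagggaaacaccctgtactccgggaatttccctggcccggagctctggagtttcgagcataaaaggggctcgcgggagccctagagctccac
Cxcl2, chr5:90903649-90903898, plus strand: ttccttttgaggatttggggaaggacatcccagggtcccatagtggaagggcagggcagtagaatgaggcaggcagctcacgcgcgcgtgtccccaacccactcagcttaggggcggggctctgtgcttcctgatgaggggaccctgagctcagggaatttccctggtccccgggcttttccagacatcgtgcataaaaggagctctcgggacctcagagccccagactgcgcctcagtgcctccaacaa
Tnfaip3, chr10:19015411-19015660, minus strand: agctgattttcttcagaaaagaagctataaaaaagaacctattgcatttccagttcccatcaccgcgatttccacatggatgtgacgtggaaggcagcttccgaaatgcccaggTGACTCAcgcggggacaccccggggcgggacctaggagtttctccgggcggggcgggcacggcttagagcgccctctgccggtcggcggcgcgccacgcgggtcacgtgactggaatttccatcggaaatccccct
Sele, chr1:164047984-164048233, plus strand: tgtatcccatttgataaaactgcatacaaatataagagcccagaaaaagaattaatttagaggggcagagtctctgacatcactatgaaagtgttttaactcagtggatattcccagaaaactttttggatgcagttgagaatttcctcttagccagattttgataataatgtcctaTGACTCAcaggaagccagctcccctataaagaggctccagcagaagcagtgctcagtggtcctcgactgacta
The Il6 window held 1 AP-1 match, starting 249 bases before the start, and neither the Cxcl1 nor the Cxcl2 window held TGANTCA. Tnfaip3 held it 136 bases before the start shown and not in the window of its other start, and Sele held it 73 bases before its start. The window of Icam1, a further gene low in both libraries, held neither motif and is not shown. These 3 further genes were chosen after their values were seen. Over all 32851 RefSeq windows, 250 bases before to 50 after a start, 7.81% held TGANTCA and 1.79% held TGACGTCA. A comparison of these shares between sets of genes was void, because only 79.4% of tested genes, 74.1% of those lower in both libraries and 77.5% of those higher in both matched a RefSeq promoter. A match is a run of letters and not a bound site.

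Il6, encoding interleukin 6 (chromosome 5, 30013114 to 30019975), stood at 215.0 and 139.9 FPKM with BAPN and at 1.30 and 1.37 FPKM with T-5224. In the normal libraries it stood at 0 and 0.10 FPKM, so both T-5224 libraries lay far below BAPN and slightly above normal. It fell by 6.22 on the log2 scale (SE 0.34, adjusted p = 0.00713).

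Cxcl1, a chemokine for neutrophils (chromosome 5, 90891245 to 90893121), stood at 364.5 and 255.2 FPKM with BAPN, at 4.93 and 7.59 FPKM with T-5224 and at 3.14 and 1.77 FPKM in the normal libraries. The groups did not overlap, and T-5224 replicate 2 was the higher of its pair. The change was -5.42 (SE 0.35, adjusted p = 0.00959). Its neighbour Cxcl2, in the same chemokine cluster (chromosome 5, 90903899 to 90905938), stood at 98.5 and 68.8 FPKM with BAPN, at 3.16 and 1.37 FPKM with T-5224 and at 0.30 and 0.20 FPKM in the normal libraries. Here replicate 1 was the higher T-5224 library. The change was -4.73 (SE 0.42, adjusted p = 0.0428).

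Csf3, encoding granulocyte colony-stimulating factor (chromosome 11, 98700183 to 98703631), stood at 54.2 and 38.6 FPKM with BAPN and at 0.41 and 0 FPKM with T-5224, and both normal libraries listed it at 0. The change was -5.30 (SE 0.43, adjusted p = 0.0289). No call of these 4 held when either BAPN library was left out, or when only the 4 libraries compared were fitted. Without T-5224 replicate 2, the library with the ribosomal and airway excess, Il6 and Cxcl1 still passed (adjusted p = 0.0323 each), while Csf3 and Cxcl2 did not (adjusted p = 0.0531 each). Csf3 and Cxcl2 also missed the threshold without either normal library (adjusted p from 0.0639 to 0.0964) or either TPA library (0.0721 to 0.105), and Cxcl1 without either TPA library (0.0562 and 0.0568).

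Low levels of these genes were not limited to T-5224. Il6 stood at 7.58 and 12.04 FPKM with TPA and 0.94 FPKM with coQ10, and Cxcl1 at 45.6 and 47.6 FPKM with TPA and 2.76 FPKM with coQ10. Cxcl2 stood at 5.75 and 10.80 FPKM with TPA and 1.68 FPKM with coQ10, and Csf3 at 0.13 and 0.94 FPKM and 0.16 FPKM in the same libraries. Further genes named below were also lower than in both BAPN libraries with TPA and with coQ10. Ccl2 stood at 18.53 and 19.25 FPKM with TPA and 2.58 FPKM with coQ10. In the same order Tnfaip3 stood at 7.91, 4.81 and 5.01 FPKM and Icam1 at 25.49, 19.55 and 21.14 FPKM. Myc stood at 18.6, 22.5 and 9.77 FPKM and Adamts4 at 0.92, 2.18 and 1.7 FPKM. Not all genes did so: Zfp36 stood at 361.31, 248.96 and 145.97 FPKM. These comparisons share the BAPN libraries, and the difference between the agents was not tested here.

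Over all tested genes, 517 (3.98%) were lower in both T-5224 libraries and 240 (1.85%) higher in both by at least 1 log2 unit. The split leans further to the lower side once libraries are scaled by median of ratios, which brings the median change of all genes to 0.04: 731 (5.62%) were then lower and 84 (0.646%) higher, with all 517 and 84 of the 240 kept. The nearest genes outside the limit of 1 were Trim62 and Zfp61 on the higher side (gaps of 0.997 and 0.998) and Sbno2 and Mal on the lower side (0.997 and 0.999). Those just inside were Npr1, Utp11l, Lhfpl4 and Gria1, all with gaps of 1.00. In a further 556 genes (4.28%) both T-5224 libraries lay below BAPN and in 1459 (11.2%) above, with 1 of them past the limit.

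Of 26 cytokine and chemokine genes, 21 were tested; Il1a, Tnf, Il11, Csf2 and Il10 were below the filter. Since the filter averages over libraries in which such genes were high, the counts describe the tested members only. In both T-5224 libraries 13 were lower and none higher, against 3.98 and 1.85% of all tested genes, and 4 passed the test. The median change was -1.99, or -2.34 relative to all genes.

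The CC chemokines that attract monocytes followed the same order of libraries. Ccl2 stood at 202.7 and 97.4 FPKM with BAPN and at 9.59 and 12.21 FPKM with T-5224 (log2 difference -3.58, SE 0.42, adjusted p = 0.0798). Ccl7 stood at 379.8 and 194.8 FPKM with BAPN and at 26.7 and 11.4 FPKM with T-5224 (log2 difference -3.88, adjusted p = 0.131). Both groups were separate for each gene, though neither passed the test. Ccl3, Ccl5 and Ccl8, and the neutrophil chemokines Cxcl3 and Cxcl5, were also lower in both libraries, with log2 differences between -1.60 and -3.17.

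Il1b, the interleukin 1 beta gene, was at 87.8 and 49.0 FPKM with BAPN and at 9.33 and 1.96 FPKM with T-5224 (log2 difference -3.59, adjusted p = 0.171). Lif, a cytokine of the interleukin 6 family, was lower in both as well (7.12 and 2.87 FPKM against 0.77 and 0.44 FPKM). Il33 (53.8 and 27.7 FPKM against 38.2 and 29.4 FPKM) overlapped between the groups. Cxcl12, the CXCR4 ligand of stromal cells, was the 1 tested member whose T-5224 libraries both lay above BAPN, at 192.2 and 255.5 FPKM against 108.6 and 129.9 FPKM. Il1rn, Csf1 and Cxcl10 were lower in replicate 2 only.

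**Figure D1:**
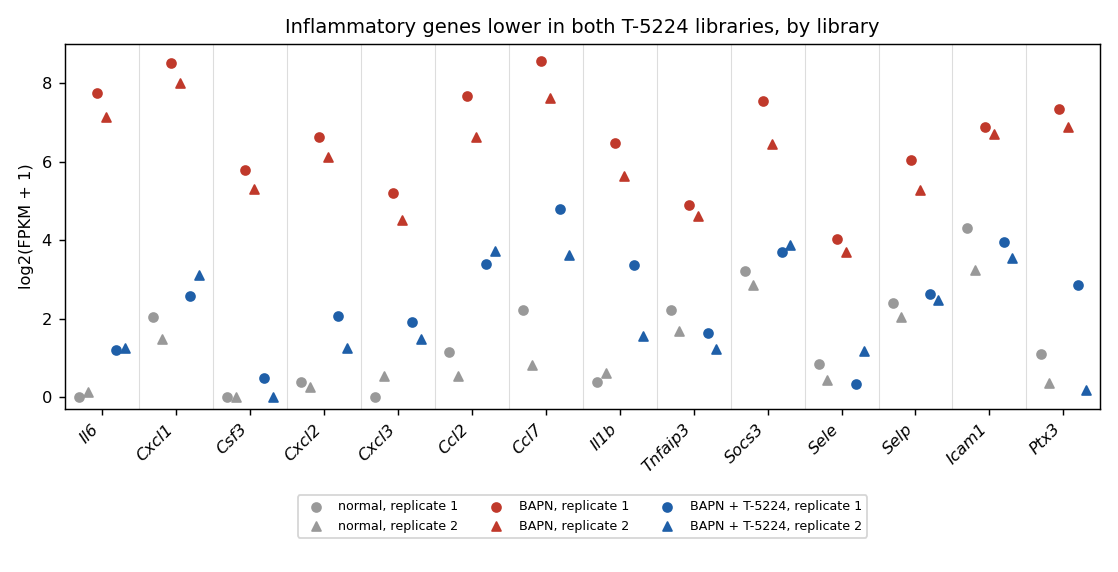
Levels, as log2(FPKM + 1), of 14 inflammatory genes in the 2 normal (grey), 2 BAPN (red) and 2 T-5224 (blue) libraries; circles are replicate 1 and triangles replicate 2. For each gene both blue points lie below both red points; Il6, Cxcl1, Csf3 and Cxcl2 passed the test, and the other 10 did not.

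Among 12 genes of NF-kB subunits and inhibitors, 5 were lower in both T-5224 libraries and none higher in both, against 3.98 and 1.85% of all tested genes. None passed the test, and the median change was -1.41 against 0.35 for all genes. Tnfaip3, which encodes the NF-kB feedback inhibitor A20, stood at 28.6 and 23.7 FPKM with BAPN, 2.08 and 1.35 FPKM with T-5224 and 3.63 and 2.22 FPKM in the normal libraries. Its T-5224 levels thus lay below those of both other groups (log2 difference -3.33, SE 0.36, adjusted p = 0.0679). The other 4 were the subunit genes Rel and Relb and the regulators Nfkbie and Bcl3. Nfkb1 and Nfkb2 lay below BAPN in both libraries with 1 of them past the limit, while Rela overlapped (55.5 and 42.3 FPKM against 38.3 and 43.5 FPKM). Nfkbia, encoding the inhibitor I-kappa-B alpha, split: 221.3 and 176.2 FPKM with BAPN, 30.7 FPKM in T-5224 replicate 1 and 314.9 FPKM in replicate 2, and the replicates differed (log2 difference 3.32, adjusted p = 0.0354).

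Of 7 tested endothelial genes for leukocyte adhesion 3 were lower in both and none higher in both, against 3.98 and 1.85% of all tested genes. None passed, and here too the filter averages over libraries in which such genes were high. Sele, E-selectin, was at 15.4 and 12.1 FPKM with BAPN and 0.25 and 1.25 FPKM with T-5224 (log2 difference -3.13, adjusted p = 0.101). Selp, P-selectin, was at 65.5 and 37.6 FPKM against 5.21 and 4.55 FPKM (log2 difference -3.11, adjusted p = 0.0798), and Icam1 at 116.7 and 104.1 FPKM against 14.6 and 10.6 FPKM (log2 difference -3.05, adjusted p = 0.101). Vcam1 overlapped between the groups, at 31.0 and 23.1 FPKM against 30.1 and 11.4 FPKM. Pecam1 and Cd34 overlapped too. Of 12 general endothelial markers, Kdr and Vwf lay below BAPN in both T-5224 libraries and none lay above in both. Of all tested genes 12.8% lay below in both and 34.2% above. The part of endothelial content in the adhesion genes was not tested. The plasma protein genes were less even: Ptx3, the long pentraxin, stood at 162.1 and 117.8 FPKM with BAPN and at 6.22 and 0.13 FPKM with T-5224 (log2 difference -5.61, adjusted p = 0.124), whereas haptoglobin, Hp, was higher in both (51.3 and 32.0 FPKM against 128.0 and 215.0 FPKM).

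Several lists of blood leukocyte markers were also lower with T-5224. The filter averages over libraries in which many of these markers were high, so the counts describe the tested members only. Of all tested genes, 3.98% were lower in both libraries and 5.48% higher in replicate 2 only. Of 9 tested neutrophil markers, 3 (S100a9, Mmp8 and Retnlg) were lower in both libraries and 2 were higher in replicate 2 only, and the list summed to 1913 and 1085 FPKM with BAPN, 146 and 398 FPKM with T-5224 and 287 and 30.2 FPKM in the normal libraries. S100a9 stood at 1010 and 615.9 FPKM with BAPN and at 67.6 and 101.5 FPKM with T-5224. Of 12 macrophage markers none was lower in both, and they summed to 667 and 333 FPKM with BAPN and 634 and 659 FPKM with T-5224. Of 7 tested B cell markers 6 were lower in both, and they summed to 63.6 and 554 FPKM with BAPN and 11.7 and 7.85 FPKM with T-5224. Of 9 tested T cell markers 1 was lower in both by the limit and 7 lay below BAPN in both (12.8% of all tested genes did so), with sums of 115 and 280.4 FPKM against 34.5 and 70.4 FPKM. No marker of these 4 lists passed the test. The part of these cells in the cytokine levels was not tested.

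The targets of the inhibitor, AP-1 proteins, are not measured by RNA, but their genes were. Of 12 AP-1 subunit genes, none passed the test and none was lower or higher in both libraries by the limit. In 7 the T-5224 libraries both lay below BAPN without overlap (12.8% of all tested genes did so) and in 1, Jund, above (34.2%). The median change was -0.67, or -1.02 relative to all genes.

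The Fos family was uneven. Fos itself stood at 128.7 and 156.1 FPKM with BAPN and at 140.4 and 226.0 FPKM with T-5224 (log2 difference 0.33, SE 0.55, adjusted p = 0.761), above the normal 28.1 and 65.9 FPKM. Fosb was at 65.6 and 49.1 FPKM against 34.3 and 23.2 FPKM (log2 difference -0.98, adjusted p = 0.334), Fosl1 at 21.4 and 6.05 FPKM against 3.79 and 0.49 FPKM, and Fosl2 at 45.5 and 37.1 FPKM against 20.2 and 14.9 FPKM. The latter 3 were below BAPN in both T-5224 libraries, Fosl1 and Fosl2 by log2 differences of -2.23 and -1.20, and none passed the test.

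In the Jun family, Jun overlapped (94.8 and 108.7 FPKM against 86.9 and 172.1 FPKM) and Jund differed little (159.1 and 138.9 FPKM against 186.5 and 185.7 FPKM). Junb stood at 281.7 and 265.3 FPKM with BAPN, 168.2 and 170.6 FPKM with T-5224 and 49.6 and 40.3 FPKM in the normal libraries, between the other 2 groups (log2 difference -0.69, SE 0.34, adjusted p = 0.327). Atf3, a stress-induced partner, was at 131.4 and 118.5 FPKM against 21.9 and 74.0 FPKM, and Batf, a partner in lymphocytes, at 5.79 and 7.95 FPKM against 3.12 and 0 FPKM. Atf2 and Jdp2 overlapped between the groups, and Batf3 was at 2.00 and 4.00 FPKM against 1.40 and 1.54 FPKM. Under median-of-ratios scaling 2 of the 12 were lower in both by the limit (5.62% of all tested genes were).

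**Figure D2:**
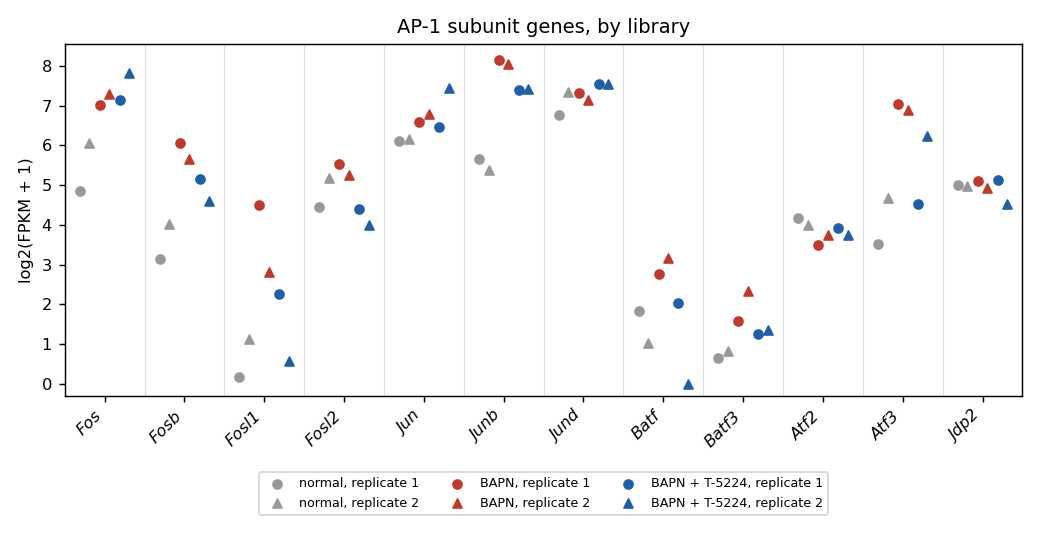
Levels, as log2(FPKM + 1), of the 12 AP-1 subunit genes in the 2 normal (grey), 2 BAPN (red) and 2 T-5224 (blue) libraries; circles are replicate 1 and triangles replicate 2. Fosb, Fosl1, Fosl2, Junb, Batf, Batf3 and Atf3 lie lower with T-5224 in both replicates, Fos and Jun do not, and none passed the test.

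Of 28 genes listed as AP-1 targets 23 were tested, and 1 fell (Il6). In both libraries 4 (Il6, Ccl2, Plaur and Lif) were lower and none higher, against 3.98 and 1.85% of all tested genes. Il6, Ccl2 and Lif were described above among cytokines and chemokines, so the counts of these lists overlap. A further 2 were lower in replicate 1 only, 5 in replicate 2 only and 1 was opposite. Of all tested genes 1.64, 2.32 and 1.46% were. The median change was -0.03 in replicate 1 and -1.60 in replicate 2, against 0.34 and 0.25 for all genes. Plaur, the urokinase receptor gene, stood at 106.7 and 73.1 FPKM with BAPN and 24.7 and 20.3 FPKM with T-5224 (log2 difference -1.93, adjusted p = 0.148). Of the matrix protease genes in the list, Mmp3 overlapped (27.8 and 13.9 FPKM against 12.1 and 16.0 FPKM) and Mmp9 was low in replicate 2 only (2.99 and 2.46 FPKM against 5.00 and 0.30 FPKM). Mmp13 was below the filter, and Mmp1a and Mmp10 were not analysed here. Ptgs2, cyclooxygenase 2, was at 22.4 and 17.4 FPKM with BAPN, 16.6 FPKM in T-5224 replicate 1 and 0 in replicate 2, and differed between the replicates (adjusted p = 0.0354).

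Immediate early genes outside AP-1 number 19 in the list, and none passed. In both libraries 6 were lower (Egr3, Myc, Dusp2, Dusp5, Zfp36 and Socs3) and none higher, against 3.98 and 1.85% of all tested genes. Socs3, the feedback inhibitor induced by interleukin 6 signalling, stood at 186.1 and 86.3 FPKM with BAPN, 11.9 and 13.8 FPKM with T-5224 and 8.25 and 6.27 FPKM in the normal libraries (log2 difference -3.21, SE 0.40, adjusted p = 0.101). Zfp36, whose protein degrades cytokine mRNAs, was at 345.3 and 358.2 FPKM against 122.7 and 107.8 FPKM, close to the normal 86.2 and 131.7 FPKM. Myc was at 45.7 and 39.3 FPKM against 6.56 and 8.92 FPKM. Egr1 lay below BAPN in both libraries, past the limit in replicate 2 alone, and Nr4a1, Dusp1, Btg2 and Klf6 had log2 differences between -0.58 and 0.28.

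Several secreted enzymes and matrix regulators of inflamed tissue were low in both T-5224 libraries. Adamts4, an aggrecanase, stood at 40.7 and 21.6 FPKM with BAPN, 0.46 and 0.32 FPKM with T-5224 and 0.70 and 0.42 FPKM in the normal libraries (log2 difference -4.47, SE 0.44, adjusted p = 0.0587). Has1, a hyaluronan synthase, was at 54.0 and 19.3 FPKM against 0.57 and 0 FPKM (log2 difference -4.74, adjusted p = 0.0705), and Tnfaip6, which modifies hyaluronan, at 84.8 and 49.7 FPKM against 8.32 and 2.58 FPKM. The normal libraries held 1.29 and 0.83 FPKM of Has1 and 2.99 and 3.51 FPKM of Tnfaip6. In the coagulation list 3 of 13 were lower in both and none higher in both, against 3.98 and 1.85% of all tested genes. The 3 were Plaur, Thbd (thrombomodulin, 116.7 and 70.0 FPKM against 20.9 and 9.58 FPKM) and Tfpi2 (7.64 and 4.84 FPKM against 1.32 and 1.51 FPKM). Of 23 tested matrix proteases and inhibitors, 3 (Adamts4, Mmp8 and Mmp15) were lower in both (3.98% of all tested genes were). Mmp2, Mmp14, Timp1 and Ctsb overlapped between the groups.

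Under median-of-ratios scaling, 35 genes fell and none rose, among them the 4 above and Ccl2, Ccl7, Cxcl3, Tnfaip3, Socs3, Sele, Selp, Icam1, Adamts4, Has1, Tnfaip6 and Ptx3. Of the 12 named here beside the 4, the adjusted p-values under that scaling lay between 0.0174 (Adamts4 and Tnfaip3) and 0.0473 (Ptx3). The 35 were not all inflammatory or matrix genes. The neuronal genes Gal, Resp18 and Syngr3 were among them (adjusted p = 0.0391, 0.0335 and 0.0391). Dbh, Slc6a2, Sncb and Tubb3, neuronal as well, were not. As deposited, only the first 4 passed.

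Of the 8 genes with the largest gaps on the lower side after the 4 that passed, 7 are neuronal genes and the other is Ptx3. Gal, the neuropeptide galanin, was at 70.0 and 92.1 FPKM with BAPN and listed at 0 in both T-5224 libraries (adjusted p = 0.101). Dbh, the enzyme that makes noradrenaline, was at 274.6 and 269.6 FPKM against 0.26 and 10.8 FPKM, and the noradrenaline transporter gene Slc6a2 at 116.4 and 116.6 FPKM against 0.17 and 5.06 FPKM. Resp18, Sncb, Tubb3 and Syngr3, all expressed in neurons, were lower in both with log2 differences between -4.46 and -5.22. With TPA, Gal stood at 1.05 and 12.8 FPKM, Dbh at 3.03 and 107.6 FPKM and Slc6a2 at 0.59 and 46.5 FPKM. With coQ10 they stood at 0, 0.22 and 0.15 FPKM, so low levels were not limited to T-5224. The difference between the agents was not tested. Of 10 sympathetic neuron markers 9 were lower in both (3.98% of all tested genes were). None passed as deposited, and 1 fell under median-of-ratios scaling, where 35 of all tested genes did. The 10 summed to 1989 and 2667 FPKM with BAPN, 99.6 and 418 FPKM with T-5224 and 216 and 68.5 FPKM in the normal libraries. In T-5224 replicate 1, 2 of the 10 (Gal and Phox2a) were at 0, and in replicate 2 only Gal. All 4 tested haemoglobin genes were lower in both T-5224 libraries.

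On the higher side no gene passed the test. The gene seen in both with the largest gap was Id4, at 1.43 and 2.61 FPKM with BAPN, 36.5 and 17.7 FPKM with T-5224 and 17.3 and 35.4 FPKM in the normal libraries (log2 difference 3.16, SE 0.48, adjusted p = 0.128). Id1 followed, at 46.9 and 28.3 FPKM, 216.8 and 338.2 FPKM, and 237.5 and 391.5 FPKM (log2 difference 2.86, SE 0.44, adjusted p = 0.13). Id proteins bind basic helix-loop-helix factors and keep them off DNA, and their genes are induced by bone morphogenetic proteins. For both genes the T-5224 libraries lay within or next to the normal range and apart from BAPN. Id4 stood at 11.1 and 13.7 FPKM with TPA and 17.8 FPKM with coQ10. Id1 stood at 61.6 and 43.1 FPKM with TPA and 204.2 FPKM with coQ10. The difference between the agents was not tested.

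Atoh8, a helix-loop-helix factor gene, was likewise at 7.22 and 2.61 FPKM with BAPN and 50.6 and 32.2 FPKM with T-5224. Id2 was higher in both (32.0 and 27.3 FPKM against 187.1 and 89.7 FPKM), whereas Id3 was at 292.8 and 219.6 FPKM against 458.6 and 495.2 FPKM, short of the limit. In the TGF-beta response list of 17, Id1 and Id2 were the 2 seen in both higher and none was lower in both, against 1.85 and 3.98% of all tested genes. None passed. Tgfbr2 was at 24.5 and 19.5 FPKM against 45.5 and 46.6 FPKM (log2 difference 1.04, adjusted p = 0.164). In the list 6 others, among them Ctgf and Smad7, were higher in replicate 1 only (5.29% of all tested genes were). Further genes with a large gap were Lims2, a focal adhesion gene, at 29.5 and 21.5 FPKM against 140.0 and 137.0 FPKM, Perp, a desmosome gene, at 9.54 and 8.77 FPKM against 52.3 and 38.8 FPKM, and Cap2, an actin regulator, at 4.59 and 2.72 FPKM against 23.7 and 18.7 FPKM. Rbm24, Popdc2, Ccdc107, Fibin, Angptl8 and Upk3b complete the 12, with log2 differences from 1.99 to 3.59. All 12 were also seen in both under median-of-ratios scaling. Of them, Lims2 stood at 44.1 and 58.8 FPKM with TPA and 191.9 FPKM with coQ10.

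Of 20 contractile smooth muscle genes 4 (Lmod1, Synpo2, Tpm1 and Tpm2) were higher in both and none lower, against 1.85 and 3.98% of all tested genes. None passed the test. In 13 the T-5224 libraries both lay above BAPN, against 34.2% of all tested genes, and the median change was 1.81, or 1.46 relative to all genes. Acta2, smooth muscle alpha-actin, stood at 745 and 246 FPKM with BAPN, 7067 and 1306 FPKM with T-5224 and 3191 and 9310 FPKM in the normal libraries (log2 difference 2.82, SE 1.02, adjusted p = 0.231). Replicate 1 reached the normal range and replicate 2 did not. Lmod1, a nucleator of actin filaments, was at 10.5 and 3.92 FPKM against 152.3 and 27.2 FPKM, and Cnn1, calponin, at 84.4 and 31.0 FPKM against 704.1 and 147.3 FPKM. Myh11, the smooth muscle myosin heavy chain gene, was high in replicate 1 only (75.5 and 50.1 FPKM against 1102 and 50.3 FPKM), and its T-5224 libraries differed (adjusted p = 0.046). Des, desmin, which striated muscle also expresses, was high in replicate 2 only. Under median-of-ratios scaling only Lmod1 of the 20 was higher in both. Haemoglobin made up 68.9 and 74.1% of the sum with BAPN and 40.8 and 11.2% in T-5224 replicates 1 and 2. The 20 genes averaged 5.66 and 4.69 in log2(FPKM + 1) with BAPN and 7.58 and 6.24 with T-5224. Of the T-5224 libraries, replicate 2 thus had both the lower haemoglobin share and the lower mean. The part of the haemoglobin share in these levels was not tested.

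Of 16 clock genes 4 (Nr1d1, Nr1d2, Dbp and Tef) were higher in both and 1, Bhlhe40, lower in both, against 1.85 and 3.98% of all tested genes. None passed the test. Tef, a clock output gene, was at 12.5 and 12.8 FPKM with BAPN, 58.9 and 43.8 FPKM with T-5224 and 73.8 and 85.9 FPKM in the normal libraries (log2 difference 1.92, SE 0.28, adjusted p = 0.112). Nr1d1, the clock repressor REV-ERB alpha, was at 14.6 and 13.2 FPKM against 45.6 and 63.1 FPKM. Dbp was at 5.12 and 4.02 FPKM against 178.5 and 14.6 FPKM, and the 2 T-5224 values differed (log2 difference -3.53, adjusted p = 0.046). Per2 and Per3 were high in replicate 1, at 44.7 and 20.9 FPKM, and near the BAPN level in replicate 2, at 3.37 and 1.34 FPKM, while Arntl was at 0.76 FPKM in replicate 1 and 14.2 FPKM in replicate 2 against 10.4 and 6.51 FPKM with BAPN. Arntl, Per2, Per3 and Dbp were the 4 clock genes that differed between the T-5224 libraries. Of all tested genes, 2.12% were higher and 2.66% lower in replicate 2 in that test. The labels do not give the time of day of killing.

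Changes seen in 1 T-5224 library outnumbered those seen in both. In replicate 1 only, 688 genes (5.29%) were higher and 213 (1.64%) lower, and in replicate 2 only, 712 (5.48%) were higher and 302 (2.32%) lower. A further 190 (1.46%) lay on opposite sides of BAPN, 61 of them high in replicate 1 and 129 high in replicate 2. A direct test of replicate 2 against replicate 1, with the spread taken from the normal, BAPN and TPA pairs, found 276 genes (2.12%) higher and 346 (2.66%) lower in replicate 2. Of these 622 genes 197 were among the 901 seen in replicate 1 only, 218 among the 1014 seen in replicate 2 only, 103 among the 190 opposite and 8 among the 757 seen in both. Since those classes were set on the same libraries, the p-values of their genes between the replicates are a description. Each T-5224 library is alone in that test, has its own titled week and is assumed to vary like the other groups. The count was 0 when either BAPN or either TPA library was left out and 2601 to 2644 when a normal library was left out.

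**Figure D3:**
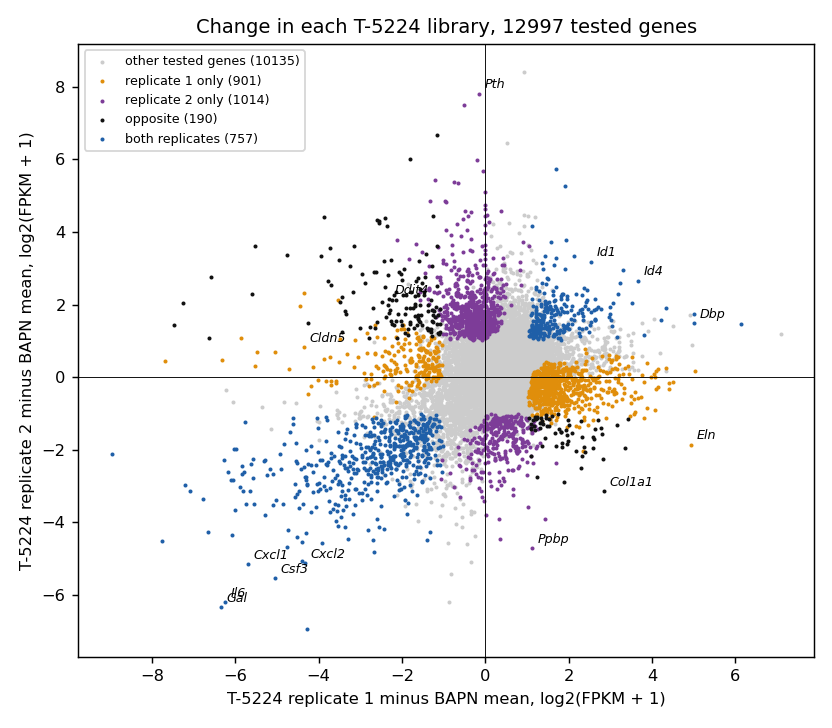
Change against the BAPN mean in T-5224 replicate 1 (x axis) and replicate 2 (y axis), in log2(FPKM + 1), for 12997 tested genes. Blue points (757) were seen in both libraries, orange (901) and purple (1014) in 1 of them and black (190) on opposite sides; Il6, Cxcl1, Csf3 and Cxcl2 lie far down on the diagonal, while Eln, Col1a1 and Pth lie off it.

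Matrix genes split between the T-5224 libraries, which also differed in the trend with transcript length. The part of that trend in the split was not tested. Of 18 collagen genes 6 were higher in replicate 1 only and 7 were opposite, against 5.29 and 1.46% of all tested genes. Col5a3 was lower in both (3.98% of all tested genes were). The median change was 2.33 in replicate 1 and -1.27 in replicate 2, against 0.34 and 0.25 for all genes. Col1a1, of the main fibrillar collagen, stood at 166.3 and 113.6 FPKM with BAPN, 990.3 FPKM in replicate 1 and 14.6 FPKM in replicate 2 (log2 difference of replicate 2 from replicate 1 -5.99, SE 0.42, adjusted p = 0.0319). Col3a1 was at 318.8 and 127.1 FPKM, 997.3 FPKM and 34.5 FPKM (adjusted p = 0.0382). The normal libraries lay between, at 152.7 and 165.3 FPKM for Col1a1.

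Of 18 tested elastic fibre and cross-linking genes 11 were higher in replicate 1 only (5.29% of all tested genes were) and none was seen in both. Eln, elastin, stood at 452.9 and 113.6 FPKM with BAPN, 7046 FPKM in replicate 1, 61.8 FPKM in replicate 2, and 424.2 and 1194 FPKM in the normal libraries (log2 difference between replicates -6.81, SE 1.15, adjusted p = 0.0444). Lox, the enzyme that BAPN inhibits, was at 70.6 and 40.03 FPKM with BAPN, 159.4 FPKM in replicate 1 and 23.1 FPKM in replicate 2, a difference that did not pass (adjusted p = 0.116). Acan, aggrecan (32.8 and 0.42 FPKM), the myosin light chain kinase family gene Mylk4 (51.8 and 0.82 FPKM) and Lgr6 (26.7 and 0.82 FPKM) were likewise high in replicate 1 and near BAPN in replicate 2, and differed between them.

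Glucocorticoid-responsive genes split the other way. Of 12, 5 (Fkbp5, Tsc22d3, Sgk1, Ddit4 and Angptl4) were low in replicate 1 and high in replicate 2. On opposite sides in either direction lay 1.46% of all tested genes. The median changes of the list were -1.45 in replicate 1 and 1.52 in replicate 2. Fkbp5, which encodes a chaperone of the glucocorticoid receptor, was at 13.5 and 12.3 FPKM with BAPN, 5.18 FPKM in replicate 1 and 78.6 FPKM in replicate 2 (adjusted p = 0.0354). Ddit4 was at 59.4 and 92.3 FPKM, 14.2 FPKM and 332.1 FPKM (log2 difference 4.45, adjusted p = 0.0319). The normal libraries held 41.5 and 81.1 FPKM of Fkbp5, near replicate 2, and 51.9 and 54.1 FPKM of Ddit4, between the replicates. Ribosomal protein genes were high in replicate 2 only for 33 of 37 (5.48% of all tested genes were).

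Endothelial genes were lower in replicate 1 only for 6 of 12 (1.64% of all tested genes were). Cldn5, of endothelial tight junctions, was at 281.8 and 187.5 FPKM with BAPN, 10.4 FPKM in replicate 1 and 405.8 FPKM in replicate 2 (log2 difference 5.16, adjusted p = 0.0354). The 12 summed to 1108 and 824 FPKM with BAPN, 301 FPKM in replicate 1 and 2043 FPKM in replicate 2. Platelet genes were low in replicate 2: Ppbp was at 74.9 and 114.2 FPKM with BAPN, 203.2 FPKM in replicate 1 and 2.56 FPKM in replicate 2, and 4 of 9 platelet markers were at 0 there. Red cell genes Bpgm (466.8 and 23.7 FPKM) and Slc4a1 (16.0 and 0.13 FPKM), and Arg1 (58.6 and 1.46 FPKM), were low in replicate 2 as well and differed between the replicates.

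**Figure D4:**
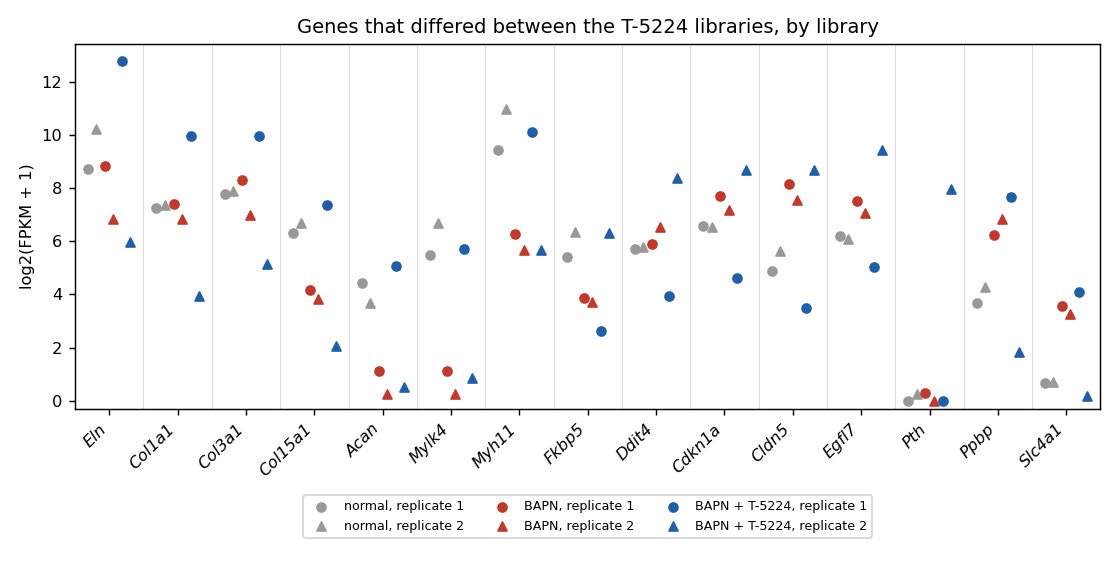
Levels, as log2(FPKM + 1), of 15 genes that differed between the T-5224 libraries, in the 2 normal (grey), 2 BAPN (red) and 2 T-5224 (blue) libraries; circles are replicate 1 and triangles replicate 2. Eln, Col1a1, Col3a1, Col15a1, Acan, Mylk4 and Myh11 are high in T-5224 replicate 1, and Fkbp5, Ddit4, Cdkn1a, Cldn5, Egfl7 and Pth in replicate 2.

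Genes of other tissues followed single libraries. Pth, parathyroid hormone, was at 247.9 FPKM in T-5224 replicate 2 and at 0.22 FPKM or less in the other T-5224, BAPN and normal libraries. The log2 difference between the T-5224 libraries was 7.96. With TPA it stood at 0 and 6.91 FPKM. Scgb1a1, of airway club cells, was at 9.04 and 7.85 FPKM with BAPN, 17.1 FPKM in replicate 1 and 3220 FPKM in replicate 2. Of 15 skeletal muscle markers 8 were low in replicate 1 and high in replicate 2 (1.46% of all tested genes were opposite in either direction). Another 4, among them Ckm and Mylpf, were low in replicate 1 only (1.64% of all tested genes were). Dusp26, a phosphatase gene, was low in replicate 1 only too (34.0 and 37.5 FPKM with BAPN, 0.40 FPKM and 42.2 FPKM) and differed between the replicates. Cardiac markers were high in replicate 2 only for 6 of 11 (5.48% of all tested genes were), with sums of 49.9 and 1898 FPKM in replicates 1 and 2.

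**Figure D5:**
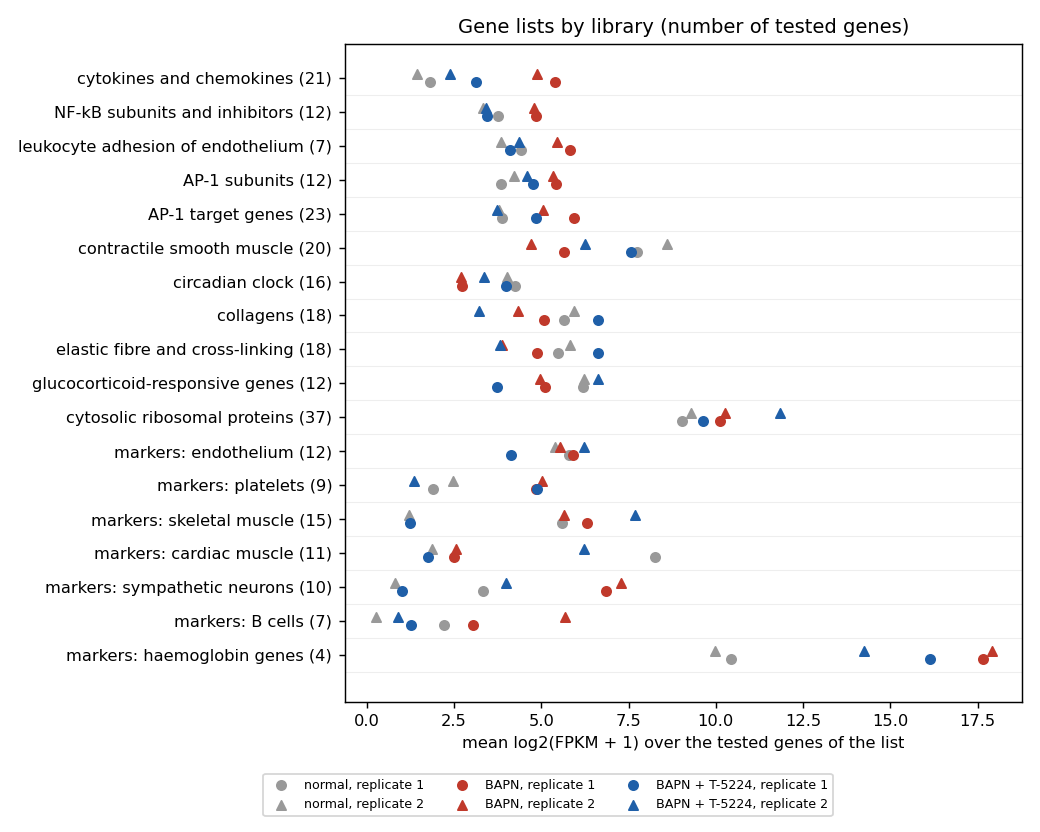
Mean of log2(FPKM + 1) over the tested genes of 18 lists (number of genes in brackets) in the 2 normal (grey), 2 BAPN (red) and 2 T-5224 (blue) libraries; circles are replicate 1 and triangles replicate 2. Cytokine, NF-kB, neuron, B cell and haemoglobin lists lie below BAPN in both T-5224 libraries and contractile smooth muscle above, while collagens, glucocorticoid-responsive genes, endothelium and skeletal muscle lie on opposite sides.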

How the data were processed

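Aortic RNA was isolated in Trizol and sequenced from TruSeq libraries, per the labels' protocols. The deposited tables, 1 per library, hold FPKM values by gene symbol. The submitters' processing notes name the build mm10; aligner, counting tool and annotation: not given in the sources used here. A gene absent from a table was set to 0. The depth per library is unknown, so no counting error can be given. FPKM are scaled to the library's total, so much haemoglobin can lower all other genes, by an amount not measured here. The haemoglobin shares given are of the summed FPKM, which differed between libraries, and not of the fragments.

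Groups came from the treatment labels. Genes with a mean of at least 1 FPKM over 9 libraries (12997 of 17179) were fitted in limma 3.58.1 (R 4.3.3) on log2(FPKM + 1), with a variance trend and Benjamini-Hochberg adjustment over all tested genes, tests 2-sided, threshold 0.05. The fit of T-5224 against BAPN had 5 groups (4 residual degrees of freedom), and the fit of T-5224 replicate 2 against replicate 1 had 6 (3 residual degrees of freedom). The fit was run on simulated data with independent normal errors and known shifts. Those data held none of the library differences described above, so the check cannot show how the fit performs under them. Alternatives were pseudocount 0.1, no filter, median-of-ratios scaling, haemoglobin left out of the sum, removal of a trend with transcript length (GENCODE M21), the 4 libraries alone, a replicate block and each library left out.

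Named genes are, per direction, up to 12 by the gap between the nearest T-5224 and BAPN library, those that passed first, up to 6 seen in 1 library only, all AP-1 subunits and a selection of up to 4 per list by p; other list members were chosen after their values were seen. The members and lists were chosen with earlier results of these data known. RefSeq positions and promoters (GRCm38.p6) were matched by symbol or synonym; 99.7% of symbols matched a RefSeq gene, and no promoter was matched for Csf3. Some results are not reported here.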

Additional observations from a re-analysis of the deposited data

Results flagged for a closer look

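These genes were named as changed in 1 T-5224 library only, and in limma the 2 libraries, which differ in titled week, passed the test of the difference between them. Because the genes were chosen on these same libraries, 1 against 1, the p-values are a description, and no gene passed when either BAPN or either TPA library was left out. No cause was tested. Values are log2(FPKM + 1) of replicate 2 minus replicate 1. On the matrix and smooth muscle side, Eln differed by -6.81 (adjusted p = 0.0444), Mylk4 by -4.86 (0.0372), Acan by -4.57 (0.0354) and Lgr6 by -3.93 (0.0416), all high in replicate 1. Of genes low in replicate 2 against BAPN, the platelet chemokine gene Ppbp differed by -5.84 (adjusted p = 0.0435), the arginase gene Arg1 by -4.60 (0.0319), and the red cell genes Bpgm by -4.24 (0.0319) and Slc4a1 by -3.91 (0.0354). Pth, high in replicate 2 and at 0 in replicate 1, differed by 7.96, and Dusp26, low in replicate 1, differed by 4.95. Pth also stood at 6.91 FPKM in TPA replicate 2. Of these 10 genes none passed the test of T-5224 against BAPN.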

How the results depend on the processing

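For T-5224 against BAPN, the 4 falls became 2 with pseudocount 0.1 and 2 with no filter (Il6 and Cxcl1 in both), 35 under median-of-ratios scaling, 14 with haemoglobin left out and 41 with the length trend removed (the 4 among them each time), and 0 in a fit of the 4 libraries compared, where 696 genes were lower at an unadjusted p under 0.05. With each library left out in turn falls ranged from 0 to 40 and rises from 0 to 45; falls numbered 0 without either BAPN library (623 and 436 at an unadjusted p under 0.05), 2 without either normal or either TPA library, and 40, with 45 rises, without T-5224 replicate 1. Every called gene kept its direction in these fits.

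The replicate numbers do not pair the libraries: deviations of same-numbered BAPN and T-5224 libraries correlated by 0.0057 across genes. With the replicate number as a block in the same limma fit, 0 genes fell (753 lower at an unadjusted p under 0.05).

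For replicate 2 against replicate 1, the 622 genes became 958 with pseudocount 0.1, 148 with no filter, 2151 with haemoglobin left out and 368 with the length trend removed; leaving out libraries, an alternative chosen after seeing the data, gave 0 to 2644. Genes higher in both numbered 240 as deposited, 443 with pseudocount 0.1, 84 under median-of-ratios scaling, 40 with haemoglobin left out, 71 with the length trend removed and 4 at a limit of 2 log2 units. Genes lower in both numbered 517, 778 with haemoglobin left out and 180 at the limit of 2. At that limit 231 were seen in replicate 1 only, 228 in replicate 2 only and 17 on opposite sides, and pseudocount 0.1 put 418 on opposite sides. Without 1 BAPN library, 535 to 763 were higher in both, 657 to 855 lower, 310 to 350 opposite, 826 to 930 in replicate 1 only and 914 to 988 in replicate 2 only. The cause of these shifts was not tested. Values near 0 are limited by the unknown depth.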

Other observations

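MHC class II genes, of antigen presentation, lay low in T-5224 replicate 2. H2-Ab1 stood at 107.0 and 325.1 FPKM with BAPN, 101.7 FPKM in T-5224 replicate 1 and 1.57 FPKM in replicate 2, and in 6 of 7 class II genes both T-5224 libraries lay below BAPN (12.8% of all tested genes did so), with 0 lower in both by the limit and none past the test. Of 19 genes of the unfolded protein response 1, Herpud1, was higher in both (1.85% of all tested genes were). In replicate 1 only 5 were higher (5.29% of all tested genes were), and none passed. Under median-of-ratios scaling 0 were higher in both. Herpud1 was at 30.4 and 31.0 FPKM with BAPN and 80.7 and 99.2 FPKM with T-5224, and its normal levels were 149.0 and 103.0 FPKM. Of 30 nuclear genes of oxidative phosphorylation none was seen in both and 11 were higher in replicate 2 only (5.48% of all tested genes were). Of 20 tested cell cycle genes 8 were lower in replicate 2 only (2.32% of all tested genes were) and none was seen in both. Mesothelial genes lay above BAPN in both T-5224 libraries for 8 of 8 (34.2% of all tested genes did so), with Msln (0.50 and 0 FPKM against 2.67 and 15.1 FPKM) and Upk3b seen in both and none past the test, and the list summed to 456 and 12.2 FPKM in the normal libraries.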
